A study of Mus musculus with 12 samples.

Results

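A set of 10 genes used as a readout of cytokine signalling was followed across bulk RNA sequencing libraries of mouse HSPCs. These haematopoietic stem and progenitor cells live in the bone marrow and give rise to all blood cells. They are the feedback inhibitors Socs1, Socs2, Socs3 and Cish, the kinases Pim1 and Pim2, and the transcription factors Stat3, Stat4, Stat5a and Stat5b, and they were taken by name as 10 of the 54532 genes of the count table. All 10 were detected in every library, with 121 to 7762 reads, and all passed the filter on low counts. There were 12 libraries, 3 for each of 4 groups: young HSPCs without culture, aged HSPCs without culture, and aged HSPCs kept in culture with either vehicle or uridine, a pyrimidine nucleoside. All groups were labelled wild type, with genotype names that run from c57bl/6 in the vehicle libraries through c57bl/7 and upward to c57bl/15 in the others, so the strain is uncertain. The sources used here do not give the ages, the sort markers, the medium and length of culture or the dose of uridine. They also do not say whether replicate libraries stem from different mice or dishes, so p-values cover only the spread among the libraries at hand, and that may be technical.

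Cytokine receptors without a kinase of their own are bound by Janus kinases, which phosphorylate STAT proteins when a cytokine arrives. The phosphorylated STAT proteins pair, enter the nucleus and switch on target genes, and among the best known of these are the Socs, Cish and Pim genes. SOCS proteins and CIS, the product of Cish, bind the receptors or kinases and dampen the signal, whereas the PIM kinases act downstream of it and favour survival and growth. In blood progenitors STAT5 carries the signals of interleukin-3, thrombopoietin and erythropoietin, and STAT3 those of granulocyte colony-stimulating factor and the interleukin-6 family. STAT4 answers interleukin-12 in T and natural killer cells.

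Positions are those of GENCODE M21 on mm10. The feedback inhibitors lie apart from each other, Socs1 at chr16:10782240-10785536 on the minus strand, Socs2 at chr10:95385362-95417180 on the minus strand, Socs3 at chr11:117966079-117970047 on the minus strand and Cish at chr9:107296026-107302784 on the plus strand. The PIM kinases are found with Pim1 at chr17:29490753-29496112 on the plus strand and Pim2 at chrX:7878262-7883432 on the plus strand. Among the STAT genes 3 are neighbours, Stat5b at chr11:100780731-100850724 on the minus strand, Stat5a at chr11:100859351-100885169 on the plus strand and Stat3 at chr11:100885098-100939540 on the minus strand. The other one is Stat4 at chr1:51987148-52107189 on the plus strand.

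STAT proteins bind a short palindrome whose core reads TTCNNNGAA, where N is any base. Promoter windows from RefSeq (GRCm38.p6, the mm10 build, 250 bases before to 50 after an annotated start) were found for 9 of the 10 genes, 13 windows in all, and Socs2 had no entry. The core was present in 2 of the 13 windows, those of Socs3 and Cish, beside 8.30% of all 32851 windows of that length. The narrower form TTCCNGGAA, which lies within the core, was present in Cish and in 1.15% of all windows. Both forms read the same on either strand. The stretches that hold the core are shown with their matches in capitals, each 5′ to 3′ in the direction of the gene. The Pim1 stretch is shown beside them because Pim1 ranked the 4 groups in the same order as Socs3 but its windows held no match. The Socs3 stretch (chr11:117969452-117969616, minus strand) lies upstream of the RefSeq start and in an intron of a longer GENCODE transcript, the Cish stretch (chr9:107296654-107296682, plus strand) lies in the first exon of the GENCODE transcript, and the Pim1 stretch (chr17:29490535-29490752, plus strand) ends at the base before the gene.
Socs3: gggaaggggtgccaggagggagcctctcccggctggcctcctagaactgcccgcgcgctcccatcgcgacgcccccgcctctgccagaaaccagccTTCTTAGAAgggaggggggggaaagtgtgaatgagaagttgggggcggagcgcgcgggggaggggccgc
Cish: cagttTTCCTGGAAagTTCTTGGAAatct
Pim1: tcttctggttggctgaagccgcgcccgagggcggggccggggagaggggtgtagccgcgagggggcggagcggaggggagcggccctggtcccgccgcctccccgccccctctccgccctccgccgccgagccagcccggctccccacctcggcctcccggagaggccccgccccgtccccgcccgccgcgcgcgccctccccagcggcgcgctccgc
The Socs3 match starts 154 bases before the RefSeq start. The 2 Cish matches start at bases 1 and 12 after the start, so that they stand next to each other. A match describes the letters of the window and is not a measured binding site.

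The deposited counts totalled 16785065 to 19025802 per library. Levels are given as CPM, read counts brought to a common library size with TMM factors, and levels of different genes are compared only as CPM per kilobase of exon. Immunoglobulin genes and Jchain, the joining chain of secreted antibodies, took 21.6 to 21.9% of the counts in the aged uncultured libraries and 0.540 to 0.924% in the others. The scaling factor of the aged uncultured libraries was 0.836, against 1.05 to 1.07 elsewhere. All 12 genes listed for the labelled cell type, stem and progenitor cells, were detected in each group, with Kit at 201 ± 3.30 CPM or more and Cd34 at 201 ± 8.07 CPM or more (SD, n = 3). Their summed level was not the same across groups, at 7462 to 7655 CPM in young, 8527 to 8898 CPM in aged uncultured, 3988 to 4091 CPM in vehicle and 5217 to 5299 CPM in uridine libraries. Mpo, the myeloperoxidase of myeloid progenitors, made up most of that sum (7254 ± 182 CPM in aged uncultured, 2171 ± 45.8 CPM in vehicle libraries). Ly6a, which encodes the stem cell antigen Sca-1, was at 17.8 ± 0.986 CPM in young, 247 ± 4.80 in aged uncultured, 455 ± 12.8 in vehicle and 258 ± 7.76 in uridine libraries.

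Marker genes of other cells differed between the groups as well. The summed level of 8 plasma cell genes ran from 25634 to 25891 CPM in the aged uncultured libraries, against 634 to 643 CPM in young, 1044 to 1092 CPM in vehicle and 704 to 730 CPM in uridine libraries. The 10 B cell genes summed to 6208 to 6473 CPM in aged uncultured and to at most 863 CPM in any other library. The 12 genes of maturing neutrophils summed to 5967 to 6169 CPM in young, 610 to 651 CPM in aged uncultured, 394 to 399 CPM in vehicle and 2264 to 2334 CPM in uridine libraries, where 1 of the 12 had no count in the vehicle group. The summed level of the 12 genes of monocytes and macrophages was highest in the vehicle libraries (4139 to 4180 CPM). Uridine (2650 to 2717 CPM), young (1297 to 1356 CPM) and aged uncultured libraries (475 to 491 CPM) followed. Lyz2 made up most of the sum in young (995 CPM), vehicle (2768 CPM) and uridine libraries (1793 CPM), but not in aged uncultured ones (140 CPM). Gene by gene, 3 of the 12 were higher and 5 lower in aged than in young uncultured libraries. Their median log2 fold change was -0.03, and 65.3% of all genes were called in that comparison. The 16 genes of T and natural killer cells summed to 346 to 374 CPM in aged uncultured and 151 to 157 CPM in young libraries, and to 50.7 to 54.5 CPM with vehicle and 81.7 to 84.1 CPM with uridine. The 12 erythroid genes summed to 1186 to 1199 CPM in young, 506 to 510 CPM in aged uncultured, 436 to 450 CPM in vehicle and 689 to 701 CPM in uridine libraries, with 1 of them at no count in the vehicle group. Tfrc (251 CPM) and Car2 (160 CPM) made up most of the vehicle sum. Gene by gene, 9 of the 12 were lower and 2 higher in vehicle than in aged uncultured libraries, with a median log2 fold change of -3.75. Over all genes 70.5% were called there. The 8 megakaryocyte and platelet genes summed to 1163 to 1172 CPM in vehicle and 769 to 785 CPM in uridine libraries, against 184 to 189 CPM in young and 118 to 129 CPM in aged uncultured libraries. The 10 basophil and mast cell genes were highest in young libraries (1590 to 1629 CPM) and lowest in aged uncultured ones (538 to 541 CPM), with 798 to 810 CPM in vehicle and 1043 to 1050 CPM in uridine libraries. The summed level of the 11 stromal and endothelial genes followed the order young (662 to 688 CPM), uridine (306 to 313 CPM), vehicle (186 to 187 CPM) and aged uncultured (138 to 155 CPM), with 1 gene at no count in each of the latter 2 groups. Pecam1 (99.4 CPM), Kdr (43.5 CPM) and Pdgfrb (40.9 CPM) made up most of the vehicle sum. Of the 10 tested, 7 were lower and 3 higher in vehicle than in aged uncultured libraries, with a median log2 fold change of -1.27, beside the same 70.5%. In bulk RNA, more cells of a type and more RNA per cell cannot be told apart, and the part of these cells in the differences described next was not tested.

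**Figure D1:**
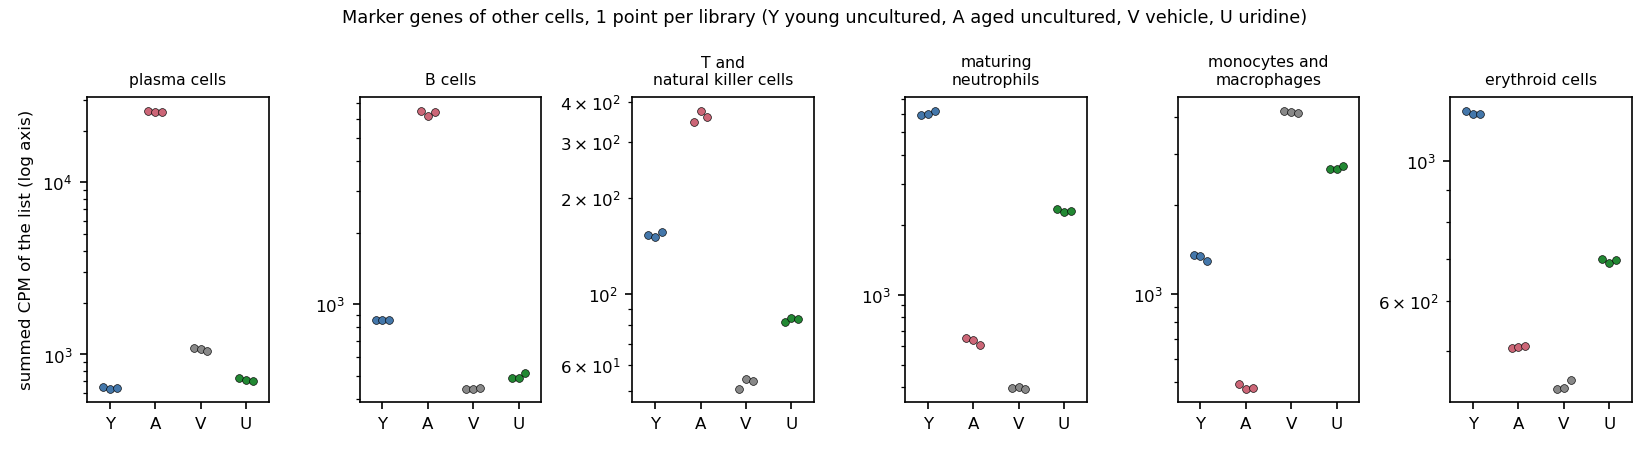
Summed CPM (log axis) of 6 marker lists in each of the 12 libraries, 1 point per library. Plasma cell and B cell genes stand highest in the aged uncultured libraries, neutrophil genes in the young libraries and macrophage genes in the vehicle libraries.

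Per kilobase of exon, Pim1 was the most abundant of the 10 genes in every group and Socs2 the least. Pim1 stood at 97.8 ± 2.32 CPM per kilobase in young, 154 ± 2.06 in aged uncultured, 55.8 ± 2.31 in vehicle and 69.8 ± 1.77 in uridine libraries (SD, n = 3). Socs2 stood at 1.41 to 1.78 CPM per kilobase in group means. Of the STAT genes Stat5b was the highest per kilobase in each group (24.5 to 31.0), followed by Stat3 (14.3 to 22.5), Stat5a (10.0 to 13.7) and Stat4 (3.20 to 3.74). Stat5a and Stat5b are near-identical neighbours on chromosome 11, so that reads of their common stretches could have been split between them or dropped. Stat3 and Stat5a overlap at their ends on opposite strands, and without knowledge of strand such reads cannot be told apart. The other transcripts that overlap exons of Cish, Pim1 and Stat4 had at most 12 counts in any library.

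**Figure D2:**
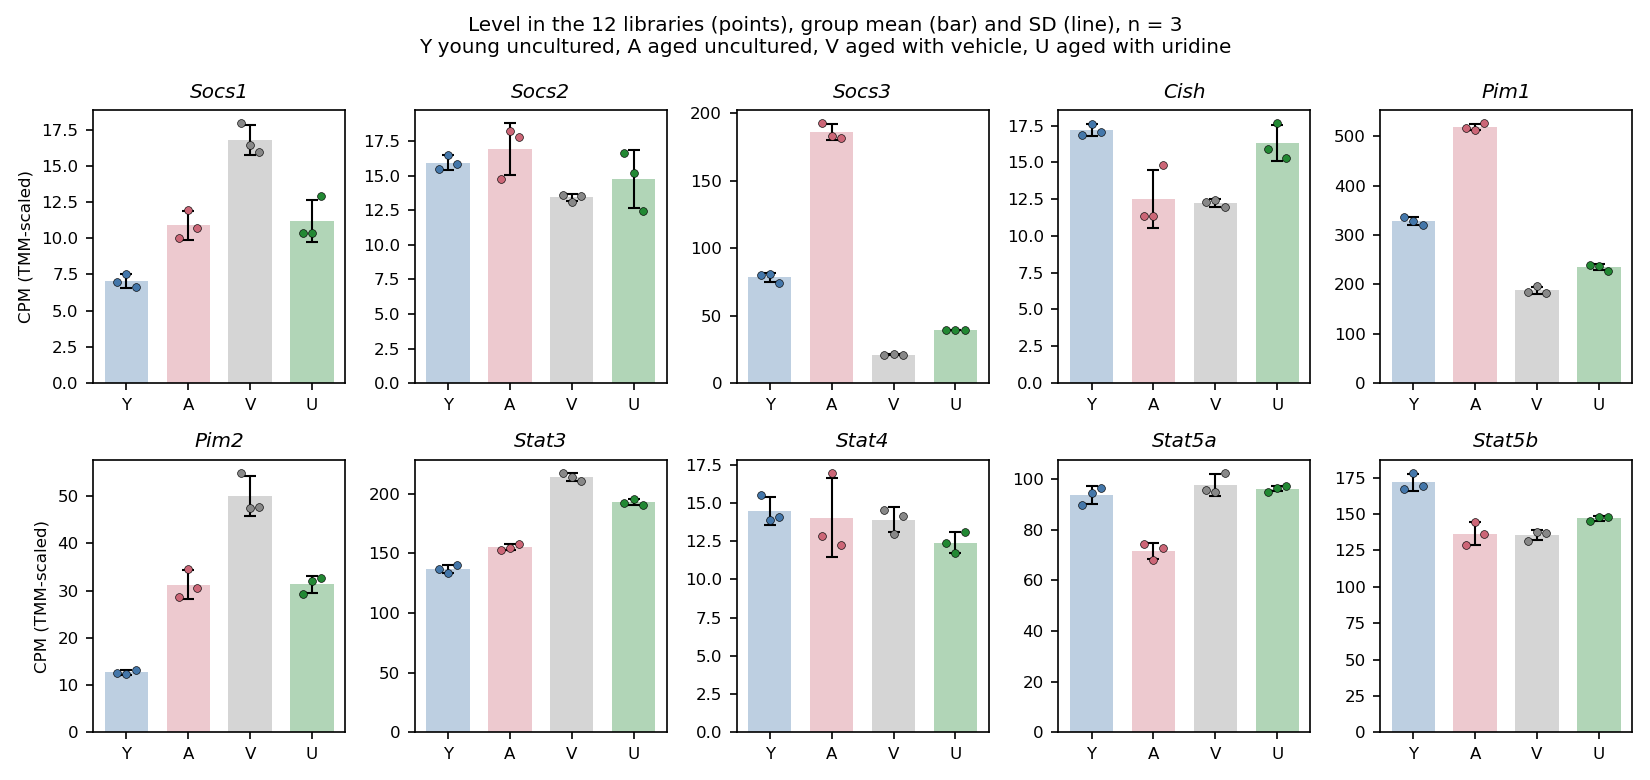
Level of each gene in CPM (linear axes from 0) in the 12 libraries, as points, with the group mean (bar) and SD (line), n = 3. Socs3 and Pim1 step down from aged uncultured to young to uridine to vehicle libraries without overlap, and Pim2 and Socs1 are highest with vehicle and lowest in young cells.

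Aged and young uncultured cells were compared first, for differences that go with age, beginning with the feedback inhibitors. Socs3, which blocks Janus kinases at receptors of the interleukin-6 family and of granulocyte colony-stimulating factor, was at 80.1, 80.8 and 74.2 CPM in the young and at 193, 183 and 182 CPM in the aged uncultured libraries. All aged libraries lay above all young libraries, a 2.37-fold rise (log2 fold change 1.25, SE 0.0435, edgeR adjusted p = 4.90e-24). Socs1, the inhibitor best known from interferon signalling, was at 7.00, 7.56 and 6.62 CPM in the young and at 9.99, 12.0 and 10.7 CPM in the aged libraries. Its groups did not overlap either, and its log2 fold change was 0.62 (SE 0.131, edgeR adjusted p = 8.27e-05).

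Cish went the other way. It was at 16.9, 17.6 and 17.1 CPM in the young and at 11.4, 11.3 and 14.8 CPM in the aged uncultured libraries. The third aged library was the highest of its group but still below every young library, and the log2 fold change was -0.46 (SE 0.111, edgeR adjusted p = 4.69e-04). Socs2, the inhibitor of growth hormone signalling, ran from 15.5 to 16.5 CPM in the young libraries and, overlapping these, from 14.8 to 18.2 CPM in the aged ones. Its log2 difference of 0.08 had a 95% interval from -0.14 to 0.31 (edgeR adjusted p = 0.513).

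Both PIM kinases rose with age. Pim1 was at 337, 328 and 321 CPM in the young and at 517, 513 and 526 CPM in the aged libraries (log2 fold change 0.66, SE 0.0297, edgeR adjusted p = 1.25e-20). Pim2 was at 12.6, 12.3 and 13.1 CPM in the young and at 28.6, 34.7 and 30.5 CPM in the aged libraries, and each aged library lay far above each young one. Its log2 fold change of 1.30 (SE 0.0898, edgeR adjusted p = 3.26e-15) was the largest of the 10 genes in this comparison.

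The STAT factors differed by less. Stat5a was at 89.6, 94.7 and 96.5 CPM in the young and at 74.2, 68.0 and 72.8 CPM in the aged libraries, and Stat5b fell from 167, 178 and 169 CPM to 129, 145 and 137 CPM. Neither gene's groups overlapped, and the log2 fold changes were -0.38 and -0.33 (edgeR adjusted p = 3.91e-09 and 2.96e-09). Stat3 rose by 0.18 (SE 0.0338, edgeR adjusted p = 1.45e-05), from 133 to 140 CPM in the young to 153 to 158 CPM in the aged libraries. Stat4 ran from 13.9 to 15.5 CPM in the young and from 12.3 to 17.0 CPM in the aged libraries, a log2 difference of -0.05 with a 95% interval from -0.28 to 0.19 (edgeR adjusted p = 0.732).

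In all, 5 of the 10 genes were higher and 3 lower in aged than in young cells, and the libraries did not overlap for 8. Over all 16675 genes tested, edgeR called 65.3% (33.2% higher, 32.1% lower), and the groups did not overlap for 66.9%. With so many genes called throughout, the size and direction of single genes carry the description rather than the count. A change of at least 1 on the log2 scale was reached by 2 of the 10 genes, Socs3 and Pim2, beside 21.7% of all genes. The median log2 fold change of the 10 was 0.13, beside 0.02 over all genes tested. In the same aged libraries all 8 plasma cell markers and 8 of 10 B cell markers were higher, and all 12 neutrophil markers were lower. All 12 erythroid and 8 of 10 basophil and mast cell markers were lower too. Of 16 markers of T and natural killer cells 10 were higher and 2 lower. Of 8 megakaryocyte markers 1 was higher and 5 lower, and of 10 measured stromal and endothelial markers 2 were higher and 6 lower.

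**Figure D3:**
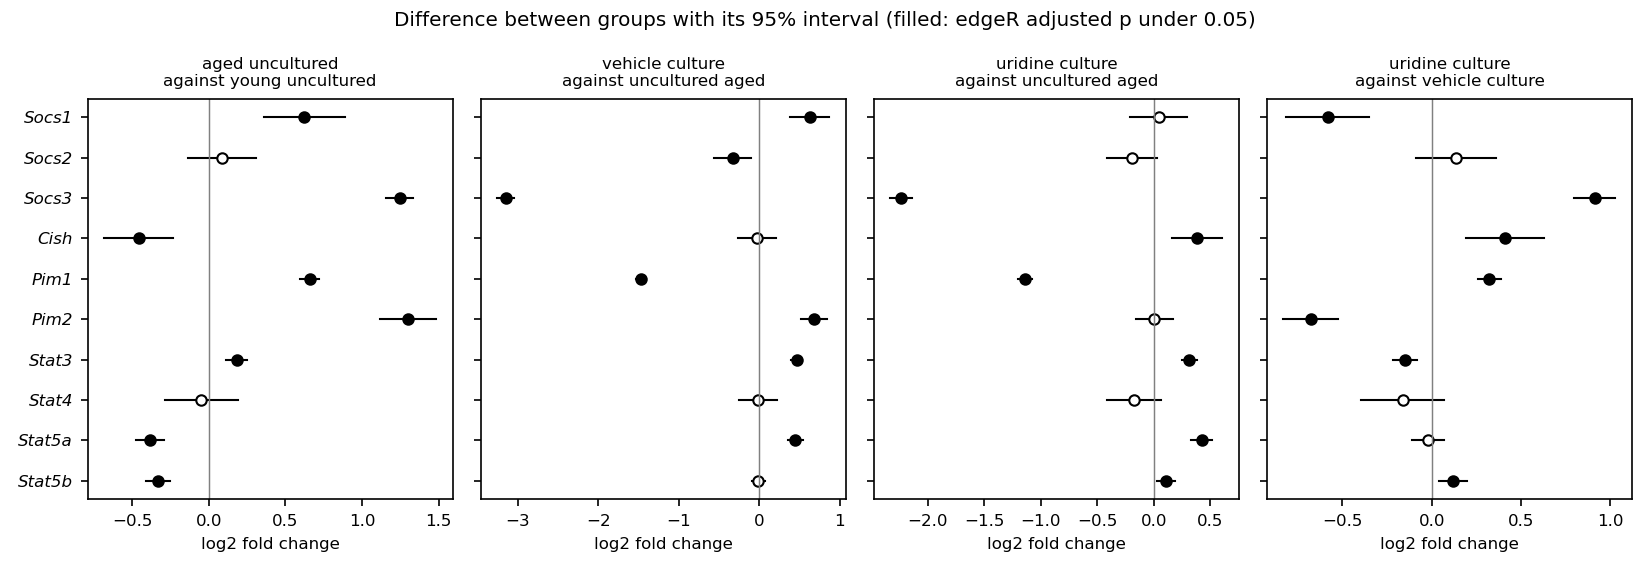
Log2 fold change of each gene (x axis, with its own scale in each panel) in the 4 comparisons, with 95% intervals from the edgeR fit. Filled points passed an adjusted p of 0.05, and Socs3 has the largest change in each comparison except that with age, where Pim2 does.

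The comparison of vehicle cultures with uncultured aged cells sets the culture with vehicle as a whole against no culture. Socs3 was at 193, 183 and 182 CPM in the uncultured and at 20.5, 21.3 and 21.1 CPM in the vehicle libraries. Its log2 fold change was -3.15 (SE 0.0514, edgeR adjusted p = 7.24e-35), and the vehicle libraries lay below the young ones too. Pim1 followed with a log2 fold change of -1.47 (SE 0.0308, edgeR adjusted p = 2.40e-31), to 185, 196 and 181 CPM. Socs2 fell by 0.33 (SE 0.112, edgeR adjusted p = 0.00873), to 13.6, 13.1 and 13.6 CPM, with no overlap with the uncultured libraries.

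Members of the same families rose in vehicle cultures. Socs1 went to 17.9, 16.4 and 15.9 CPM, above every uncultured library (log2 fold change 0.63, SE 0.119, edgeR adjusted p = 1.87e-05). Pim2 went to 55.0, 47.5 and 47.7 CPM (log2 fold change 0.68, SE 0.0778, edgeR adjusted p = 1.07e-09). Within each pair, Socs3 and Socs1 on the one hand and Pim1 and Pim2 on the other, the genes that had risen together with age therefore moved in opposite directions between uncultured and vehicle-cultured cells.

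Among the STAT factors Stat3 rose to 218, 214 and 210 CPM and Stat5a to 95.7, 94.9 and 103 CPM, by 0.46 and 0.45 on the log2 scale (edgeR adjusted p = 5.33e-15 and 8.74e-11). Stat5b, at 131 to 138 CPM, overlapped the uncultured aged libraries, with a log2 difference of -0.01 and a 95% interval from -0.09 to 0.07. Cish (12.0 to 12.5 CPM, interval of the log2 difference -0.26 to 0.20) and Stat4 (13.0 to 14.5 CPM, interval -0.25 to 0.22) overlapped them as well. These 3 genes were not called (edgeR adjusted p = 0.820, 0.825 and 0.923 for Stat5b, Cish and Stat4). In sum, 4 of the 10 genes rose and 3 fell, beside 70.5% called over all genes (35.4% higher, 35.1% lower), and 7 did not overlap, beside 71.5%. Socs3 and Pim1 were the 2 with a log2 change of 1 or more, beside 28.8% of all genes. All 8 plasma cell, all 10 B cell, 9 of 12 erythroid and 7 of 10 stromal and endothelial markers fell in the same vehicle libraries. Of 16 markers of T and natural killer cells 15 fell and 0 rose, and of 12 neutrophil markers 9 fell and 2 rose. In these libraries 9 of 12 macrophage, 7 of 8 megakaryocyte and 9 of 10 basophil and mast cell markers rose.

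Uridine cultures were also set against the uncultured aged cells, a comparison that shares its uncultured libraries with the previous one. Socs3 was at 39.6, 39.5 and 39.1 CPM with uridine, a log2 fold change of -2.24 (SE 0.0466, edgeR adjusted p = 2.40e-31), and Pim1 was at 240, 236 and 228 CPM, one of -1.14 (SE 0.0302, edgeR adjusted p = 4.45e-28). Cish, at 15.9, 17.7 and 15.3 CPM, lay above all 3 uncultured aged libraries (log2 fold change 0.38, SE 0.111, edgeR adjusted p = 0.00280). Stat3 rose by 0.31 and Stat5a by 0.42 (edgeR adjusted p = 1.68e-10 and 2.88e-10).

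Stat5b rose by 0.11 (SE 0.0393, edgeR adjusted p = 0.0176), but this call was lost without aged uncultured replicate 1 (log2 fold change 0.06, edgeR adjusted p = 0.173) and under other scalings. Socs1, at 10.3, 10.3 and 12.9 CPM, and Pim2, at 29.4, 32.0 and 32.6 CPM, overlapped the uncultured aged libraries. Their log2 differences had 95% intervals from -0.21 to 0.29 and from -0.16 to 0.17 (edgeR adjusted p = 0.780 and 0.968). Socs2 (interval -0.42 to 0.03) was not called either (edgeR adjusted p = 0.115), though its edgeR adjusted p was 0.0426 with upper-quartile factors on all 12 libraries, 0.0381 without uridine replicate 1 and 0.0315 without aged uncultured replicate 1. Stat4 (interval -0.42 to 0.06, edgeR adjusted p = 0.185) completes the 4 genes without a call. Of the 10 genes 4 rose and 2 fell, beside 67.9% called over all genes (35.8% higher, 32.1% lower), and 6 did not overlap, beside 69.3%. Socs3 and Pim1 were again the 2 with a log2 change of 1 or more, beside 25.0% of all genes. In the same uridine libraries all 8 plasma cell and all 10 B cell markers were lower than in uncultured aged cells. All 12 neutrophil, 9 of 12 macrophage and 7 of 8 megakaryocyte markers were higher. Of 16 markers of T and natural killer cells 14 were lower and 0 higher, and of 10 basophil and mast cell markers 8 were higher and 1 lower. Of 12 erythroid markers 6 were higher and 2 lower, and of 10 measured stromal and endothelial markers 6 were higher and 3 lower.

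The direct comparison of uridine with vehicle cultures gives the difference that goes with uridine among cultured cells. Socs3 was at 20.5, 21.3 and 21.1 CPM with vehicle and at 39.6, 39.5 and 39.1 CPM with uridine. The uridine libraries were all well above the vehicle libraries, with a log2 fold change of 0.91 (SE 0.0572, edgeR adjusted p = 1.15e-15). Cish was at 12.3, 12.5 and 12.0 CPM with vehicle and at 15.9, 17.7 and 15.3 CPM with uridine, again without overlap (log2 fold change 0.41, SE 0.108, edgeR adjusted p = 0.00243). Pim1 rose from 181 to 196 CPM to 228 to 240 CPM (log2 fold change 0.32, SE 0.0311, edgeR adjusted p = 1.01e-10).

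Socs1 and Pim2 were lower with uridine. Socs1 went from 17.9, 16.4 and 15.9 CPM to 10.3, 10.3 and 12.9 CPM and fell by 0.58 (SE 0.115, edgeR adjusted p = 8.70e-05). Pim2 went from 55.0, 47.5 and 47.7 CPM to 29.4, 32.0 and 32.6 CPM and fell by 0.68 (SE 0.0753, edgeR adjusted p = 2.84e-09). The groups of both genes were well apart. The split within the Socs and within the Pim genes was thus also present between the cultures, with Socs3 and Pim1 higher and Socs1 and Pim2 lower with uridine.

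Stat3 fell by 0.15 (SE 0.0319, edgeR adjusted p = 2.39e-04), from 210 to 218 CPM to 191 to 196 CPM. Stat5b rose from 131 to 138 CPM to 145 to 148 CPM, by 0.12 (SE 0.0386, edgeR adjusted p = 0.0158). Its edgeR adjusted p was 0.108 without vehicle replicate 1, 0.0509 without uridine replicate 2 and 0.0593 without uridine replicate 3. Stat5a ran from 94.9 to 103 CPM in the vehicle and from 95.1 to 97.1 CPM in the uridine libraries, a log2 difference of -0.02 with a 95% interval from -0.11 to 0.07 (edgeR adjusted p = 0.727). Socs2 (interval -0.09 to 0.36) and Stat4 (interval -0.40 to 0.07) were not called (edgeR adjusted p = 0.350 and 0.281).

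With uridine 4 of the 10 genes were higher and 3 lower than with vehicle, and 7 did not overlap. Over all genes tested 38.1% were called (20.0% higher, 18.1% lower) and 50.0% did not overlap. None of the 10 changed by 1 or more on the log2 scale, beside 7.03% of all genes. The median log2 fold change of the 10 was 0.05, beside -0.00106 over all genes. In the same uridine libraries 11 of 12 neutrophil markers, 11 of 12 erythroid markers, 12 of 16 markers of T and natural killer cells and 9 of 10 B cell markers were higher than with vehicle, and 8 of 12 macrophage and 7 of 8 megakaryocyte markers were lower. Of 10 measured stromal and endothelial markers 6 were higher and 2 lower. Of 8 plasma cell markers 2 were higher and 4 lower, and of 10 basophil and mast cell markers 3 were higher and 3 lower. The erythroid gene Slc4a1 and the stromal gene Col1a1 were picked here after their values were seen. They were at 0 and 0.236 CPM with vehicle and at 24.2 and 76.7 CPM with uridine. In young libraries they were at 68.9 and 272 CPM, and in aged uncultured ones at 5.48 and 0.960 CPM. Their relation to the 10 genes was not tested.

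Placed on the line from the vehicle to the young level, the uridine mean lay between them for 9 of the 10 genes, and all 3 uridine libraries lay between those means for 7. Over all genes tested these shares were 70.5% and 47.3%. The uridine level of Socs3 lay 32.1% of the way from vehicle to young, that of Pim1 33.3%, of Stat5b 31.4%, of Stat3 27.3% and of Stat5a 37.1%. The vehicle and young libraries of Stat5a overlap, however, and without vehicle replicate 3 its uridine mean was no longer between them, which left 8 of the 10 genes for the mean and 6 for all uridine libraries. Without young replicate 1 the latter number was 6 as well, and without uridine replicate 2 it was 8. Pim2 lay at 50.1%, Socs2 at 53.0%, Socs1 at 57.4% and Cish at 81.8%. Stat4, whose vehicle and young libraries overlap too, was the exception with all libraries in, with its uridine mean of 12.4 CPM below both other means (13.9 CPM with vehicle, 14.5 CPM in young cells). The line from vehicle to young runs across both age and culture, which it cannot separate. The uridine mean also lay between the vehicle and aged uncultured means for Socs1, Socs2, Socs3, Pim1, Pim2, Stat3 and Stat5a. It did not for Cish, Stat4 and Stat5b, and no share over all genes was taken for that pair. The placing between vehicle and young was chosen after the values were seen, and no test was made on it.

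Ordered by level over the 4 groups, Socs3 spanned the widest range, with its highest group mean 8.87 times the lowest, followed by Pim2 (3.95 times), Pim1 (2.76) and Socs1 (2.38). Socs3 and Pim1 shared the order aged uncultured, young, uridine, vehicle, and none of the neighbours in that order overlapped. The group means of Socs2 stood in this order too, but all its neighbours overlapped. Socs1, Pim2 and Stat3 shared the order vehicle, uridine, aged uncultured, young; for Socs1 and Pim2 the uridine and aged uncultured libraries overlapped, and for Stat3 none did. Cish and Stat5b shared the order young, uridine, aged uncultured, vehicle. The latter 2 groups overlapped for both genes, and for Cish the young and uridine libraries did too. Stat5a had the order vehicle, uridine, young, aged uncultured, in which only the last neighbours did not overlap. Stat4 had the order young, aged uncultured, vehicle, uridine with overlap throughout, and it and Socs2 had the narrowest ranges (1.17 and 1.26 times).

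Among 10379 other protein-coding genes with at least 5 CPM, the closest to each pattern was found by the distance between centred group means of log2 CPM over the 4 groups. Gimap6, a GTPase of lymphocytes, was closest to Socs3 (distance 0.0142), at 128 CPM in young, 304 in aged uncultured, 34.4 in vehicle and 63.9 in uridine libraries. Haao (0.0648) and Chst13 (0.183) came next. Syvn1 (0.0694), a ubiquitin ligase of the endoplasmic reticulum, Ckap4 (0.0746) and Trim45 (0.0830) were closest to Pim1. Fam193a (0.0251), Rps6ka5 (0.0350) and Akap13 (0.0511) were closest to Cish, and Ikbkb (0.0140), Skiv2l (0.0218) and Ugcg (0.0236) to Socs2. This likeness rests on 4 group means.

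Of the other genes of the 3 families 7 were followed. Between aged and young uncultured cells 2 of 7 rose and 3 fell, beside 65.3% called over all genes. Pim3, the third PIM kinase, went from 75.1 ± 1.93 to 100 ± 3.04 CPM (SD, n = 3), and Socs7 and Stat6 fell by 0.28 and 0.14 on the log2 scale. In vehicle cultures 5 of 7 rose and 1 fell against uncultured aged cells, with a median log2 fold change of 0.52, beside 70.5% called over all genes (35.4% higher) and a median of -0.01. Stat2, a factor of type I interferon signalling, rose by 2.80, from 43.1 ± 3.56 to 300 ± 4.81 CPM. Pim3 was the gene that fell, to 25.6 ± 2.58 CPM. In uridine cultures 6 of 7 rose and 1 fell against the same uncultured cells, beside 67.9% called. Between the cultures, Stat2 fell with uridine by 0.51, Pim3 rose by 0.83, and in all 2 of 7 were higher and 3 lower, beside 38.1% called. Pim3 thus had the same direction as Socs3 and Pim1 in each of the 4 comparisons.

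**Figure D4:**
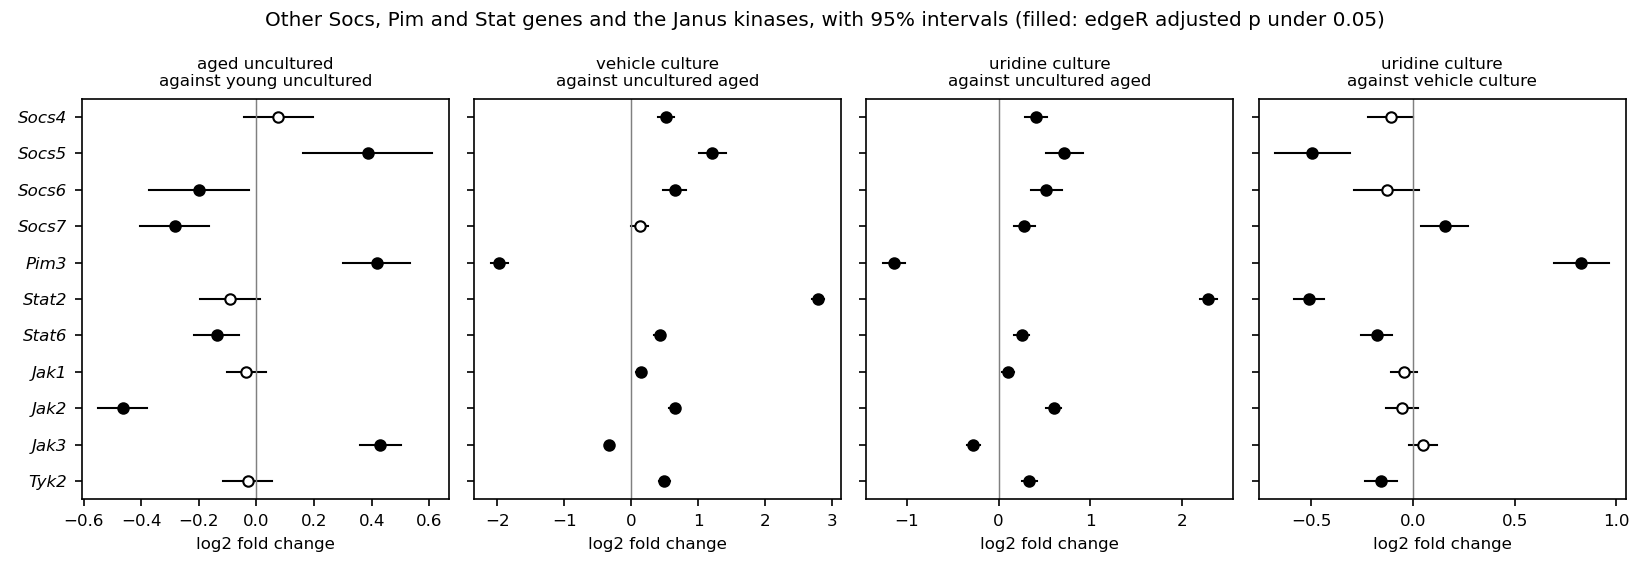
Log2 fold change (x axis, with its own scale in each panel) of 7 further Socs, Pim and Stat genes and of the 4 Janus kinases in the 4 comparisons, with 95% intervals. Stat2 has the largest rise in both cultures and is lower with uridine than with vehicle, where Pim3 is higher.

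The 4 Janus kinases changed little between the cultures, where Tyk2, a kinase of interferon and interleukin-12 receptors, fell by 0.16 and the other 3 were not called. Over all genes 38.1% were called between the cultures. With age Jak2, which serves the receptors of erythropoietin, thrombopoietin and interleukin-3, fell by 0.46 (118 to 85.3 CPM), and Jak3, the partner of the common gamma chain in lymphocytes, rose by 0.43 (135 to 182 CPM). In vehicle cultures 3 of the 4 rose and 1 fell against uncultured aged cells, beside 70.5% of all genes called (35.4% higher, 35.1% lower). Jak2 was up by 0.65, Tyk2 up by 0.49 and Jak3 down, from 182 to 145 CPM.

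Of 29 measured receptors that use these kinases 15 rose and 12 fell with age, beside 65.3% of all genes called. Il2rg, the common gamma chain, went from 33.9 ± 2.42 to 76.2 ± 2.40 CPM, Il4ra rose by 1.04 and Csf2rb2, a beta chain of the interleukin-3 receptor, fell by 1.37. In vehicle cultures Csf2rb2 rose from 12.2 ± 0.524 to 141 ± 1.94 CPM and Csf2rb, the beta chain for interleukin-3, interleukin-5 and GM-CSF, from 131 ± 1.28 to 339 ± 4.65 CPM, whereas Ifngr1 of the interferon-gamma receptor fell by 1.09. In all, 14 receptors rose and 10 fell there, beside 70.5% of all genes called. In uridine cultures 12 rose and 10 fell against uncultured aged cells, beside 67.9%. Csf2rb and Csf2rb2 are near-identical in sequence, so their separate values are uncertain. Between the cultures 17 of 29 receptors were lower with uridine and 4 higher, beside 18.1% and 20.0% of all genes. Il2rg fell by 0.55, and Ifngr1 rose by 0.35.

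Of the 22 cytokines listed as ligands of these receptors 14 passed the filter on low counts. Those that passed did so in at least 1 group, so their counts say nothing about the list as a whole. Osm, a cytokine of the interleukin-6 family and itself a target of STAT5, was at 131 ± 1.99 CPM in young, 54.9 ± 1.16 in aged uncultured, 14.1 ± 2.33 in vehicle and 47.2 ± 2.55 in uridine libraries (SD, n = 3). Il6 was at 28.7 ± 0.604, 2.53 ± 1.49, 2.94 ± 0.712 and 13.2 ± 1.93 CPM in the same order. Lif went from 2.72 ± 0.412 CPM in vehicle to 7.47 ± 0.662 CPM in uridine libraries. These 3 cytokines were each higher with uridine than with vehicle (log2 fold changes 1.75, 2.16 and 1.45 for Osm, Il6 and Lif; edgeR adjusted p = 9.89e-21, 9.33e-12 and 1.37e-09). Other ligands of receptors that signal through STAT3 moved differently, and Il27 was lower with uridine (5.98 ± 0.486 to 3.69 ± 0.564 CPM, log2 fold change -0.70, edgeR adjusted p = 0.0182), a gene picked here after its values were seen. With age Osm and Il6 fell by 1.26 and 3.51 on the log2 scale. Il10 rose with age from 1.38 ± 0.197 to 11.2 ± 1.33 CPM (log2 fold change 3.01, edgeR adjusted p = 5.07e-14) and was low in both cultures, 0.694 ± 0.265 CPM for vehicle and 1.13 ± 0.139 CPM for uridine.

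Further genes often used as STAT targets did not follow a single direction. Over all genes 65.3% were called with age, 70.5% between vehicle and uncultured aged cells and 38.1% between the cultures, and the counts of these lists stand beside those shares. Of 12 used for STAT5, 3 rose and 7 fell with age, with Ccnd3 (cyclin D3) going from 375 ± 9.79 CPM down to 126 ± 7.02 CPM. In vehicle cultures 6 rose and 6 fell against uncultured aged cells, among them Ccnd2 (cyclin D2), up by 1.33, and the survival factor Mcl1, down by 0.96. Between the cultures 4 were higher and 3 lower with uridine. Of 8 measured genes used for STAT3, 6 rose and 2 fell with age, and 1 was higher and 5 lower with uridine than with vehicle. Junb, an AP-1 factor, was the gene that rose with uridine, from 120 ± 4.40 to 282 ± 0.955 CPM, and it had fallen by 3.65 between uncultured aged and vehicle-cultured cells. Icam1, an adhesion molecule, rose by 1.25 in vehicle cultures and was lower by 0.54 with uridine than with vehicle.

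Other regulators of the pathway made up a further list. Of its 12 genes, which include STAT phosphatases, PIAS proteins, the ubiquitin ligase Cbl and also Lrrc32, a protein that binds latent TGF-beta, 7 rose and 4 fell with age, beside 65.3% of all genes called. With uridine 1 was higher and 5 lower than with vehicle, beside 20.0% and 18.1% of all genes. Cbl went from 329 ± 12.5 to 178 ± 10.9 CPM with age, and it stood higher in both cultures than in uncultured aged cells, at 272 ± 2.76 CPM for vehicle and 347 ± 1.86 CPM for uridine. Ptpn6, the phosphatase SHP-1 of blood cells, rose by 0.38 with age and fell by 0.31 with uridine against vehicle.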

How the data were processed

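Per the labels' protocols, poly-T beads took mRNA from Trizol extracts, and NovaSeq sequencing gave paired 150 bp reads. The submitters' processing notes name HISAT2 2.0.5 and the mm10 build. The authors deposited raw read counts per Ensembl gene. How these were counted, with which annotation and strand setting, is not given in the sources used here.

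Groups came from the sample titles. Symbols, positions and exon lengths came from GENCODE M21 (54532 IDs, of which 37 were unmatched and held at most 0.00589% of a library's counts). Genes kept by filterByExpr (16675) were scaled with TMM and fitted with edgeR 4.0.16, 1 mean per group over all 12 libraries. Each contrast had a quasi-likelihood F-test, adjusted by Benjamini-Hochberg over all genes tested, at a threshold of 0.05. The median prior degrees of freedom were 26.5, the residual ones 8, and the common biological coefficient of variation 0.0438. Sampling noise was exceeded in each of the 12 pairs of replicates (chi-square 2.29 to 4.06 per degree of freedom). The procedure was also run on simulated counts in which only a small part of the genes was changed. That run does not cover differences as wide as those found here, and its outcome is not reported.

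The genes and lists were chosen with earlier results of these data known. Besides the 10 genes, up to 3 called genes per list and comparison with the smallest p could be named, and the 3 genes nearest in pattern to Socs3, Cish, Socs2 and Pim1. Alternatives were DESeq2 1.42.0, limma 3.58.1 (voom), other scalings and filters, a fit of 6 libraries, a replicate block, and leaving out each library. The recount of genes between vehicle and young without each library was added after the values were seen. Some listed genes are not reported here.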

Additional observations from a re-analysis of the deposited data

How the results depend on the processing

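The number of genes called stayed within 1.5 times its main value in all 4 comparisons under every alternative run, at 10301 to 11323 for aged against young, 11155 to 12439 for vehicle and 10803 to 11843 for uridine against uncultured aged cells, and 5461 to 6782 for uridine against vehicle. Of the 10 genes, 8 were called with age and 7 between vehicle and uncultured aged cells under every alternative. Between uridine and uncultured aged cells 5 to 7 were called, and between uridine and vehicle 6 or 7. Socs3, Cish and Pim1 kept their direction and call in each comparison where they were called, and so did Pim2 and Socs1. The call of Stat5b was lost in both uridine comparisons with DESeq2 (log2 fold changes 0.07 and 0.09, adjusted p = 0.120 and 0.0625) and with its size factors in edgeR (edgeR adjusted p = 0.0976 and 0.05003). Against uncultured aged cells it was lost too with upper-quartile factors (edgeR adjusted p = 0.248) and in a fit of 6 libraries (0.125). Socs2 was called there only with upper-quartile factors (log2 fold change -0.25, edgeR adjusted p = 0.0426) or without either of 2 single libraries. The cause was not tested.

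All values that turned in sign belonged to genes that were not called. For uridine against uncultured aged cells, Pim2 (0.00 in the main fit) was at -0.0289 with DESeq2, -0.0289 with its size factors, -0.0510 with upper-quartile factors, -0.00455 without immunoglobulin genes, -0.00373 with a filter of 1 CPM in 3 libraries and -0.0276 with 6 libraries. Without 1 library at a time its range was -0.0575 to 0.0854. Socs1 was at -0.0137 with upper-quartile factors and between -0.0705 and 0.116 when a library was dropped. For vehicle against uncultured aged cells without a filter, Cish was at 1.87e-05, Stat4 at 0.0161 and Stat5b at 0.0190, and with limma voom Stat4 was at 8.73e-04. When a library was dropped in that comparison, Stat4 lay between -0.102 and 0.148, Cish between -0.0933 and 0.108, and Stat5b between -0.0520 and 0.0352. Stat4 with age lay between -0.207 and 0.0415, and Stat5a for uridine against vehicle between -0.0467 and 0.00893.

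The replicate number as a block gave 10768, 11667, 11246 and 6250 calls in the same order of comparisons and changed no call of the 10 genes. Same-numbered libraries of different groups did not deviate together (correlations from -0.0400 to 0.0235 over 18 pairs), and 2 of 12 libraries correlated best with their own number. With 3 libraries per group, these correlations cannot decide whether a number marks a shared animal, day or batch. Scaling without immunoglobulin genes and Jchain moved the median log2 fold change by -0.00846 to 0.00655. Upper-quartile factors moved it by -0.0644 for vehicle and -0.0553 for uridine against uncultured aged cells, where the higher share of calls went from 50.2 to 45.6% and from 52.8 to 48.5%. With at least 121 reads for each of the 10 genes in each library, depth limits the precision most for Socs1, Socs2, Cish and Stat4.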
